A study of Homo sapiens with 21 samples.

Results

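The depleted A673 cells that received Δ22 were compared with the depleted cells that received an empty vector (iEF), 6 of the 21 RNA-seq libraries of the series and 3 in each group. A673 is an established line of Ewing sarcoma, a tumour driven by EWS/FLI, a fusion of the disordered amino-terminal domain of EWS with the DNA-binding part of the ETS factor FLI. All 6 libraries came from cells transduced on day 1 with an shRNA against the tail of the endogenous fusion transcript, given an empty retroviral vector or a cDNA on day 5, and selected from day 6 to day 16 with puromycin at 2 µg/ml and hygromycin at 400 µg/ml. Δ22 lacks all but a few residues of the EWS domain, carries a FLAG tag and keeps the FLI portion with its ETS DNA-binding domain, and served as a negative control. The members were therefore chosen by their sample labels, and the question was what the DNA-binding part does to transcripts when the domain that recruits the transcription machinery is missing. Levels of other groups are given only beside these. They were cells with an shRNA against luciferase and an empty vector (iLuc), and depleted cells that received full-length EWS/FLI (WT-EF). Further depleted cells received EWS/FLI of full length in which repeat tyrosines are alanine (DAF) or a shortened form with such changes (DAF-mut9). Depleted cells with the shortened form without such changes (mut9) are used only in the fit. The main test was fitted to all 21 libraries, so the other groups also shape the spread behind each p-value. All groups come from 1 cell line, the cells are selected pools rather than clones, and a knockdown leaves part of the fusion in the depleted cells. The study describes its replicates as repeated knockdown and rescue experiments, so p-values measure the spread between such experiments in this line.

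ETS factors bind a purine-rich element with a GGAA core through a winged helix-turn-helix domain, and the family shares this core closely enough for members to occupy the same sites. FLI and its close relative ERG are best known in blood vessel and blood cell development, where they bind promoters and enhancers of endothelial genes, often next to GATA factors. In Ewing sarcoma the fusion binds repeats of GGAA as well as single high-affinity ETS sites, activating some genes and repressing others. Forms without the EWS domain keep the ETS domain and are used as controls for what DNA binding does alone.

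Δ22 changed few genes beside the full construct. Genes averaging 1 count or more per library numbered 30549, and 817 of them (2.67%) differed between Δ22 and iEF at a Benjamini-Hochberg adjusted p below 0.05, by edgeR's quasi-likelihood test with the replicate set as a block. In Δ22, 269 genes (0.881%) were higher and 548 (1.79%) lower, with median log2 fold changes of 1.08 and -1.45, and 152 and 387 of them changed at least 2-fold. Protein-coding genes made up 236 of the higher and 427 of the lower genes, out of 16417 tested, and lncRNA genes 26 and 84 of 6460. Without the replicate block 508 genes were called, 152 higher and 356 lower. Against the same iEF libraries, 8635 genes were called for WT-EF, 2268 for DAF and 1038 for DAF-mut9. The direct test of WT-EF against Δ22 called 7703 genes, 25.2% of those tested.

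The iEF and Δ22 libraries held 33.3 to 44.8 and 37.3 to 46.2 M counts, and mitochondrial genes took 7.04 to 10.2% and 6.53 to 10.2% of them. The iEF libraries differed more among themselves (r of log2 CPM 0.946 to 0.975) than the Δ22 libraries did (0.979 to 0.988). Of the 548 lower genes 343 had their highest iEF level in replicate 3, against 32.8% of all genes tested, and in 146 of them that library exceeded both other iEF libraries by more than 2 times. Named genes that lost their call without it are identified where they are described. Markers of Ewing cells summed to 1424 to 2027 CPM in iEF and 1462 to 1782 CPM in Δ22 (8 genes, of which CD99 has an identical copy on another chromosome and is uncertain), and NR0B1 was the 1 of the 8 that was called. Markers of other cell types summed to 7.59 to 14.9 and 8.09 to 9.92 CPM, with 6 of 17, the epithelial cadherin CDH1 and the hepatocyte and T cell markers ALB and CD3E among them, at no more than 3 counts in any library. None of the 13 tested was called by edgeR (2 at an unadjusted p below 0.05) or by DESeq2, while edgeR called 2 of 12 higher without iEF replicate 2, and 1 of 16 higher and 1 lower with no low-count filter.

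FLI1 itself was the first and only a partial check of the labels, since the counts do not separate Δ22 from the endogenous gene or from the fusion, whose transcript ends in FLI1 exons. FLI1 (ENSG00000151702, chromosome 11, 128556430 to 128683162 on the forward strand of GRCh37) was counted at 20.8, 20 and 21.1 CPM (counts per 1 M, after TMM scaling of the library sizes) in iEF replicates 1, 2 and 3. In Δ22 it stood at 41.3, 45.2 and 62 CPM. Every Δ22 library lay above every iEF library, and the difference was called with every library left out in turn (log2 fold change 1.25 ± 0.13, adjusted p = 4.85e-05). Here and below, ± beside a fold change is its standard error, and ± beside a CPM is the SD of 3 libraries. FLI1 overlaps an unnamed gene in the annotation, and its level in WT-EF was 24.5 ± 2.39 CPM, below that of Δ22 (WT-EF over Δ22, log2 fold change -1.0 ± 0.13, adjusted p = 7.38e-06). WT-EF was not called against iEF (log2 fold change 0.24 ± 0.13, adjusted p = 0.196). DAF stood at 37 ± 2.43 CPM and DAF-mut9 at 36.3 ± 1.49 CPM, so a raised FLI1 does not single out the Δ22 libraries. The highest group mean was that of iLuc, which keeps the fusion, at 70.3 ± 16.2 CPM. It lay above iEF (iLuc over iEF, log2 fold change 1.75 ± 0.14, adjusted p = 1.33e-09), and iLuc was not tested against Δ22. EWSR1, the other partner of the fusion, stood at 258, 233 and 273 CPM in iEF and at 245, 245 and 216 CPM in Δ22, with overlapping groups (log2 fold change -0.11 ± 0.092, adjusted p = 0.678).

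**Figure D1:**
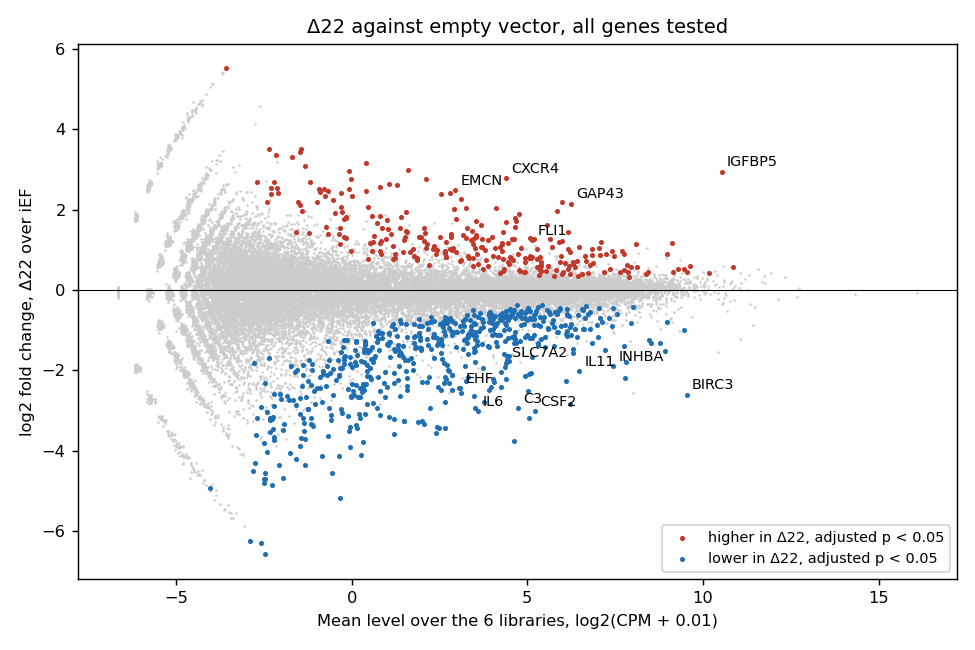
log2 fold change of Δ22 over iEF (vertical axis) against the mean level of the 6 libraries (horizontal axis, log2 of CPM + 0.01) for the 30549 genes tested. Each point is a gene, the 269 genes higher in Δ22 are red and the 548 lower are blue. Blue points outnumber red ones most clearly beyond a 2-fold change, where 387 genes were lower and 152 higher.

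Promoter sequence of the genes that changed was read from RefSeq (GRCh38.p14, 250 bases before to 50 after the start, 1 promoter for each of 27305 symbols), and 191 of the 259 higher genes with a symbol and 352 of the 502 lower ones matched. The ETS element CAGGAAG, searched on both strands, was present in 15.7% of the higher promoters, 13.9% of the lower ones and 12.8% of all promoters. CCGGAAG, the high-affinity form that differs from it in 1 base and cannot overlap it at the same core, was in 2.62% of the higher promoters, 12.5% of the lower ones and 10.7% of all promoters. It was in 15.3% of the 15069 promoters of tested genes. GGAAGGAA, a pair of joined cores that can share bases with either ETS element, was in 5.24% of the higher, 4.26% of the lower and 3.58% of all promoters. The κB element that NF-κB binds, searched as GGGNNTTTCC on both strands so that some windows below show its reverse complement, was in 1.57% of the higher promoters, 5.68% of the lower ones and 1.92% of all promoters. These shares describe letters in a 300-base window and no binding was measured.

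The endothelial genes that rose carried CAGGAAG in 3 of the 5 promoters matched, against 12.6% of the promoters of tested genes. CCGGAAG, GGAAGGAA and the κB element were each in 0 of 5. Windows of 60 bases around each match are shown with the element, which holds a GGAA core, in capitals. Whether Δ22 occupies these sites was not tested.
ECSCR (chr5:139462755-139462814, reverse strand): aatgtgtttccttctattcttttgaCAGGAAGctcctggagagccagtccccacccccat
PLVAP (chr19:17377378-17377437, reverse strand): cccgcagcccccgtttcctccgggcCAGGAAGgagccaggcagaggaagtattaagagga
HHEX (chr10:92689830-92689889, forward strand): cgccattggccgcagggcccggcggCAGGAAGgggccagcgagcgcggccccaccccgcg
Among the 16 cytokine, NF-κB target and chemokine genes that fell, 12 promoters matched and 7 of them held the κB letters. CAGGAAG and GGAAGGAA were each in 3 of the 12 (25%), and CCGGAAG in 0, so CAGGAAG was not confined to genes that rose. These genes come partly from a list that names NF-κB targets, so κB letters in their promoters are no result of Δ22. Windows with the κB letters in capitals are shown for 6 genes, and those of CXCL2 and CXCL3 hold the same 10 letters in nearly identical surroundings.
IL6 (chr7:22727102-22727161, forward strand): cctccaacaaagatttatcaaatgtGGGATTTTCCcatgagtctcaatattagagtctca
BIRC3 (chr11:102317260-102317319, forward strand): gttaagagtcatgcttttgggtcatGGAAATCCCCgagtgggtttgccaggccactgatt
CXCL2 (chr4:74099239-74099298, reverse strand): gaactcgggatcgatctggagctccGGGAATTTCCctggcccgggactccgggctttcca
CXCL3 (chr4:74038734-74038793, reverse strand): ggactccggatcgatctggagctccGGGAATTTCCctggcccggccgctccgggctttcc
CXCL6 (chr4:73836563-73836622, forward strand): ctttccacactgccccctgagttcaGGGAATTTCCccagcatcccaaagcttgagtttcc
CCL20 (chr2:227813738-227813797, forward strand): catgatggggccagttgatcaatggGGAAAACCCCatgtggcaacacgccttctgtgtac

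Genes of the endothelial list were the group most often raised by Δ22. Of 39 members tested, 8 rose and 0 fell, or 20.5% against 0.881% of all genes, and the median log2 fold change over the list was 0.45 against -0.0024 over all genes tested. The 8 were LYVE1, EMCN, CD93, PLVAP, ECSCR, THBD, KDR and HHEX. In 7 of these genes, already selected by adjusted p, all Δ22 libraries lay above the iEF libraries. Over the 39 members tested, 10 separated this way and 2 the opposite way, against 6.77% and 7.48% of all genes tested. Summed markers of blood cells, some of which endothelial cells share, ran from 43.4 to 76.1 CPM in iEF and from 46.4 to 60.5 CPM in Δ22, with 0 of 24 higher and 2 lower (8.33% against 1.79% of all genes), and PF4, GP9 and HBB among 6 of 30 at no more than 3 counts in any library. The 2 were ITGAM, at 2.57, 2.1 and 25 CPM in the iEF libraries, and ITGB2. The ITGB2 call (log2 fold change -0.82 ± 0.22, adjusted p = 0.047) was lost with any 1 of the 6 libraries left out and without the replicate block. Because the samples are bulk RNA, more cells of a state and more RNA per cell cannot be told apart.

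CD93, a surface lectin-like receptor of endothelial and myeloid cells (chromosome 20, 23059997 to 23066961 on the reverse strand of GRCh37), stood at 2.43, 0.907 and 2.24 CPM in the iEF libraries and at 6.91, 16.7 and 5.96 CPM in Δ22. The lowest Δ22 library lay above the highest iEF library (log2 fold change 2.40 ± 0.40, adjusted p = 0.0027), and without Δ22 replicate 2 the log2 fold change was 1.69. EMCN, the endothelial sialomucin endomucin, went from 2.01, 1.85 and 2.81 CPM to 10.3, 8.02 and 20.8 CPM (log2 fold change 2.48 ± 0.43, adjusted p = 0.00382). PLVAP, which forms the diaphragms of endothelial caveolae and fenestrae, was low throughout, with 0.42, 0.25 and 0.297 CPM in iEF and 1.34, 1.76 and 1.87 CPM in Δ22 (log2 fold change 2.34 ± 0.32, adjusted p = 0.000705). These 3 genes separated the groups without overlap.

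ECSCR, an endothelial chemotaxis receptor whose promoter is shown above, rose from 5.13, 3.41 and 2.13 CPM to 11.1, 15.6 and 9.44 CPM (log2 fold change 1.76 ± 0.27, adjusted p = 0.00145). THBD, the thrombin receptor thrombomodulin, was counted at 12.2, 5.98 and 18.4 CPM in iEF and 25.7, 38.9 and 50.7 CPM in Δ22 (log2 fold change 1.72 ± 0.32, adjusted p = 0.00612). LYVE1, the hyaluronan receptor of lymphatic endothelium, stood at 0.257, 0.156 and 0.0811 CPM in iEF and 1.29, 1.08 and 0.581 CPM in Δ22 (log2 fold change 2.53 ± 0.47, adjusted p = 0.0063). In all 3 the groups did not overlap, LYVE1 at very low counts. KDR, the main receptor for VEGF-A, stood at 24.6, 5.41 and 16.5 CPM in iEF and 39.9, 37.2 and 23.6 CPM in Δ22, where Δ22 replicate 3 lay below iEF replicate 1 (log2 fold change 1.28 ± 0.32, adjusted p = 0.0316). HHEX, a homeobox factor of early blood vessel and liver development, changed least (11, 11.2 and 9.24 CPM to 13.6, 21.1 and 18.2 CPM, log2 fold change 0.74 ± 0.19, adjusted p = 0.0458).

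Members that did not pass included CDH5, the cadherin of endothelial junctions, at 0.233, 0.282 and 0.0811 CPM in iEF and 0.302, 0.756 and 0.303 CPM in Δ22, and FLT1, a second VEGF receptor, at 33.2, 29.8 and 40.4 CPM in iEF and 46.8, 47.7 and 50.7 CPM in Δ22 (log2 fold change 0.50 ± 0.17, adjusted p = 0.14). With any 1 of the 6 libraries left out, between 6 and 9 list members rose, with 6 without iEF replicate 3 and 6 without Δ22 replicate 3, and 1 and 2 members fell without iEF replicates 1 and 2. The calls of LYVE1, EMCN, CD93, PLVAP and ECSCR were kept in each of these 6 fits. KDR lost its call without iEF replicate 2 or 3 or Δ22 replicate 1 or 2, HHEX without iEF replicate 2 or 3 or Δ22 replicate 2 or 3, and THBD without Δ22 replicate 3 (adjusted p = 0.051). Without the replicate block 6 members rose, and KDR (adjusted p = 0.17) and HHEX (adjusted p = 0.055) were not called. In the authors' batch-adjusted counts 4 of 31 rose.

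**Figure D2:**
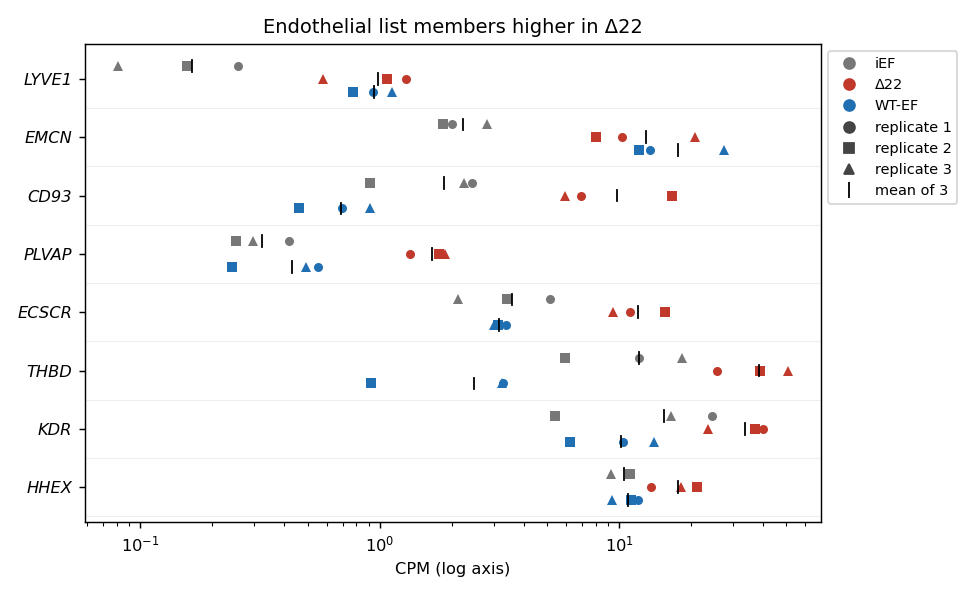
CPM on a log axis of the 8 endothelial list members that rose, in the 3 libraries each of iEF (grey), Δ22 (red) and WT-EF (blue), with marker shape for the replicate and a black bar for the group mean. The Δ22 libraries lie to the right of the iEF libraries in 7 genes and overlap them in KDR, and WT-EF lies beside Δ22 in EMCN and LYVE1.

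The full-length construct did not share this pattern throughout. WT-EF and Δ22 were compared directly, in a test that uses the Δ22 libraries of the comparison above, and 25.2% of all genes tested differed. Its fold changes are WT-EF over Δ22. CD93 stood at 0.688 ± 0.225 CPM in WT-EF, below Δ22 (log2 fold change -3.85 ± 0.44, adjusted p = 1.12e-06), and THBD at 2.48 ± 1.36 CPM (log2 fold change -4.00 ± 0.36, adjusted p = 5.69e-08). PLVAP, ECSCR, KDR and HHEX were also lower in WT-EF, by log2 fold changes of -1.96, -1.92, -1.80 and -0.68. EMCN (17.7 ± 8.51 CPM in WT-EF, log2 fold change 0.45 ± 0.39, adjusted p = 0.453) and LYVE1 (0.947 ± 0.178 CPM, log2 fold change -0.018 ± 0.38, adjusted p = 0.986) did not differ past the threshold.

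The 12 genes with the largest rise at a mean of at least 5 CPM were IGFBP5, CXCR4, EMCN, FRG2, CD93, CALCRL, POSTN, GAP43, A2M, HOXB8, CRABP1 and PCSK1, and all 12 were called with every library left out in turn. IGFBP5, a secreted binding protein of insulin-like growth factors (chromosome 2, 217536828 to 217560272, reverse strand of GRCh37), stood at 424, 278 and 315 CPM in iEF and at 2349, 2927 and 2565 CPM in Δ22 (log2 fold change 2.95 ± 0.25, adjusted p = 4.48e-06). It was the largest of the 12 changes, the libraries of a group lay close together, and WT-EF stood at 385 ± 124 CPM, lower than Δ22 (log2 fold change -2.79 ± 0.25, adjusted p = 4.45e-08). CXCR4, the receptor of the chemokine CXCL12 (chromosome 2, 136871919 to 136876747, reverse strand), stood at 5.18, 2.57 and 5.46 CPM in iEF and 8.72, 43 and 60.9 CPM in Δ22 (log2 fold change 2.79 ± 0.40, adjusted p = 0.000834). Replicate 1 of Δ22 was well below the other two and still above every iEF library. WT-EF held 4.15 ± 0.764 CPM of CXCR4, less than Δ22 (log2 fold change -2.98 ± 0.40, adjusted p = 9.74e-06).

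Among the other genes of that set, CALCRL, which pairs with RAMP proteins to form receptors for adrenomedullin and CGRP, stood at 1.52, 3.91 and 3.51 CPM in iEF and 6.17, 14.6 and 21.8 CPM in Δ22 (log2 fold change 2.27 ± 0.38, adjusted p = 0.00271). POSTN, the matrix protein periostin, rose from 16.3, 21.7 and 30.1 CPM to 63, 117 and 129 CPM (log2 fold change 2.19 ± 0.31, adjusted p = 0.000831). A2M, a broad protease inhibitor of plasma, stood at 2.82, 10.5 and 7.24 CPM in iEF and 14.2, 27.5 and 40.4 CPM in Δ22 (log2 fold change 2.05 ± 0.29, adjusted p = 0.000799) and shares exon sequence with its antisense gene. In these 3 genes, already selected by adjusted p and direction, no Δ22 library fell to the iEF range. Of all genes tested, 6.77% separated this way. GAP43, a growth cone protein of neurons, rose from 36.5, 28.1 and 20.2 CPM to 117, 136 and 112 CPM (log2 fold change 2.15 ± 0.25, adjusted p = 0.000158), and PCSK1, a prohormone convertase, from 31.1, 15.1 and 24.7 CPM to 109, 79.7 and 83.2 CPM (log2 fold change 1.97 ± 0.27, adjusted p = 0.000705). CRABP1, which binds retinoic acid, stood at 3.15, 3.32 and 2.51 CPM in iEF and 7.73, 10.3 and 17.9 CPM in Δ22, and FRG2 at 3.03, 1.06 and 2.16 CPM in iEF and 9.38, 12.7 and 13.2 CPM in Δ22. FRG2 has near-identical copies in the genome, so its counts are uncertain. Against WT-EF, CRABP1 was lower in Δ22 (log2 fold change 2.04 ± 0.32, adjusted p = 5.54e-05), while GAP43 (log2 fold change 0.54 ± 0.24, adjusted p = 0.113), PCSK1 (log2 fold change 0.06 ± 0.26, adjusted p = 0.906) and A2M (log2 fold change 0.15 ± 0.27, adjusted p = 0.763) did not differ past the threshold.

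Adhesion genes rose next most often after the endothelial list. Of 30 integrin and focal adhesion genes 5 rose and 0 fell, or 16.7% against 0.881% of all genes for the higher ones, with a list median of -0.045. ITGB3, the β3 integrin subunit of vessel and platelet receptors, stood at 6.37, 4.88 and 4.97 CPM in iEF and 14.1, 23.7 and 16.2 CPM in Δ22 (log2 fold change 1.73 ± 0.25, adjusted p = 0.000834). NPNT, the integrin ligand nephronectin, stood at 2.38, 14 and 4.11 CPM in iEF and 12.1, 25 and 19.1 CPM in Δ22 (log2 fold change 1.62 ± 0.33, adjusted p = 0.0121), with iEF replicate 2 above Δ22 replicate 1 and a log2 fold change of 2.35 without iEF replicate 2. ITGA7, ITGB8 and VCL, which encodes the adhesion protein vinculin, rose by log2 fold changes of 1.01, 1.01 and 0.46. ITGB3 was lower in WT-EF (0.655 ± 0.268 CPM, log2 fold change -4.77 ± 0.30, adjusted p = 6.99e-10). ITGB3 was called with every library left out, whereas NPNT, ITGA7, ITGB8 and VCL lost their calls without iEF replicate 3 and without Δ22 replicate 3 (ITGB8 and VCL also without 3 other libraries each), and NPNT (adjusted p = 0.091), ITGB8 (adjusted p = 0.060) and VCL (adjusted p = 0.067) without the replicate block. Among contractile targets of serum response factor 3 of 23 rose (13.0%), namely TAGLN (log2 fold change 1.07 ± 0.24, adjusted p = 0.019), TPM2 (log2 fold change 0.60 ± 0.12, adjusted p = 0.00876) and VCL. TAGLN and TPM2 were not called without iEF replicate 3, and TAGLN also lost its call without iEF replicate 1 and without Δ22 replicate 2 or 3.

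Axon guidance genes moved both ways. SEMA3D, a secreted semaphorin, stood at 11.3, 11.6 and 11.5 CPM in iEF and 37.7, 51.7 and 39.8 CPM in Δ22 (log2 fold change 1.90 ± 0.17, adjusted p = 6.52e-06), a separation with little spread in either group. ROBO2, a receptor for SLIT ligands, rose from 12.3, 6.98 and 10.8 CPM to 31, 31.4 and 34.3 CPM (log2 fold change 1.69 ± 0.20, adjusted p = 0.000158) and DCC, a netrin receptor, from 19.3, 20 and 14.4 CPM to 27.9, 36.5 and 25.9 CPM (log2 fold change 0.74 ± 0.13, adjusted p = 0.00318). NTN1, the netrin ligand itself, fell from 7.94, 7.88 and 6.46 CPM to 3.24, 3.8 and 2.75 CPM (log2 fold change -1.19 ± 0.20, adjusted p = 0.00286), and NRP2, a co-receptor for semaphorins and VEGF-C, from 32, 105 and 31.6 CPM to 10.1, 20.3 and 7.47 CPM (log2 fold change -2.07 ± 0.34, adjusted p = 0.00267). These 5 genes were 3 higher (6.82% against 0.881% of all genes) and 2 lower (4.55% against 1.79%) of the 44 tested. No library crossed between the groups in them, and each was called with every library left out. Over the 44 tested, 5 lay higher in Δ22 without overlap and 6 lower, against 6.77% and 7.48% of all genes tested. DCC was not called without the replicate block (adjusted p = 0.074). ROBO2 (log2 fold change 2.26 ± 0.20, adjusted p = 3.62e-08) and DCC (log2 fold change 1.77 ± 0.13, adjusted p = 3.29e-09) were higher still in WT-EF, and SEMA3D was lower there (log2 fold change -1.02 ± 0.16, adjusted p = 8.18e-05).

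Inflammatory cytokines and NF-κB targets fell together in Δ22. Of 29 members tested 11 fell and 0 rose, or 37.9% against 1.79% of all genes, and 26 of 29 had a log2 fold change below 0 with a median of -1.40. The 11 were CSF3, CSF2, IL6, BIRC3, TNFAIP2, IL11, PTGS2, TNFAIP3, NFKB2, RELB and CSF1. In all 11, already selected by adjusted p, every Δ22 library lay below every iEF library. Over the 29 members tested, 16 separated this way and 0 the opposite way, against 7.48% and 6.77% of all genes tested. IL6, the cytokine interleukin-6 (chromosome 7, 22765503 to 22771621, forward strand of GRCh37), stood at 13.6, 23.4 and 26.6 CPM in iEF and 1.78, 4.9 and 1.57 CPM in Δ22 (log2 fold change -3.01 ± 0.43, adjusted p = 0.000834). IL11, a cytokine that signals through the same gp130 subunit, fell from 108, 113 and 205 CPM to 37.9, 36.9 and 27.1 CPM (log2 fold change -2.03 ± 0.29, adjusted p = 0.000831). Both calls were kept with every library left out. The annotation places an antisense gene over IL6.

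Colony-stimulating factors CSF2, CSF3 and CSF1 direct granulocyte and macrophage production. CSF2 stood at 28.7, 108 and 59.8 CPM in iEF and 3.89, 14.8 and 5.55 CPM in Δ22 (log2 fold change -3.02 ± 0.68, adjusted p = 0.019), where replicate 2 was the highest library of each group. CSF1 stood at 60.8, 108 and 66 CPM in iEF and 35.2, 52 and 25.9 CPM in Δ22 (log2 fold change -1.05 ± 0.23, adjusted p = 0.0156). CSF3 was near the detection limit, with 0.49, 0.72 and 1.22 CPM in iEF and 0.0549, 0.115 and 0.0505 CPM in Δ22 (log2 fold change -3.33 ± 0.63, adjusted p = 0.0069). CSF3 lost its call without Δ22 replicate 3 (adjusted p = 0.099), CSF1 without iEF replicate 2 or Δ22 replicate 1 or 3, and CSF2 without iEF replicate 2 or 3 or Δ22 replicate 1 or 3, where its adjusted p lay between 0.055 and 0.14.

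The NF-κB subunit genes and the pathway's feedback genes lay lower too. NFKB2, which encodes p100/p52, stood at 94.9, 186 and 214 CPM in iEF and 54.5, 84.9 and 57.9 CPM in Δ22 (log2 fold change -1.32 ± 0.32, adjusted p = 0.0298), and RELB, its partner in the alternative pathway, at 33, 42.7 and 65.1 CPM in iEF and 16.1, 26.9 and 18.4 CPM in Δ22 (log2 fold change -1.20 ± 0.29, adjusted p = 0.0282). TNFAIP3, the A20 inhibitor of the pathway, stood at 191, 278 and 482 CPM in iEF and 82.4, 155 and 102 CPM in Δ22 (log2 fold change -1.40 ± 0.37, adjusted p = 0.0433). BIRC3, the ubiquitin ligase cIAP2, fell from 530.2, 1392 and 1887 CPM to 180.3, 314 and 128 CPM (log2 fold change -2.60 ± 0.58, adjusted p = 0.0185). In each of these 4 genes the groups did not overlap, and iEF replicate 3 was the highest library. PTGS2, the inducible cyclooxygenase COX-2, stood at 455, 556 and 1121 CPM in iEF and 174, 244 and 320.4 CPM in Δ22 (log2 fold change -1.52 ± 0.40, adjusted p = 0.0458), again with iEF replicate 3 highest, and TNFAIP2 at 136, 723 and 242 CPM in iEF and 53.5, 115 and 57.7 CPM in Δ22 (log2 fold change -2.18 ± 0.47, adjusted p = 0.0161), with iEF replicate 2 highest. Among the 18 members that did not pass were NFKBIA, the inhibitor IκBα (log2 fold change -1.06 ± 0.29, adjusted p = 0.0523), ICAM1, a leukocyte adhesion receptor (log2 fold change -1.45 ± 0.47, adjusted p = 0.117), and IL1B (158, 142 and 169 CPM in iEF and 86.9, 247 and 193 CPM in Δ22, log2 fold change 0.088 ± 0.46, adjusted p = 0.97).

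These counts changed with the library left out. With 1 library left out, 12 members fell without iEF replicate 1, 8 without replicate 2 and 5 without replicate 3, and 3, 10 and 2 fell without Δ22 replicate 1, 2 and 3. NFKB2, RELB, TNFAIP3, BIRC3 and PTGS2 were not called without iEF replicate 3, Δ22 replicate 1 or Δ22 replicate 3, and TNFAIP2 was not called without iEF replicate 2 (log2 fold change -1.46), Δ22 replicate 1 or Δ22 replicate 3. NFKB2 and PTGS2 were also lost without Δ22 replicate 2, and TNFAIP3 without iEF replicate 2. The list median lay between -1.64 and -1.03 in these 6 fits. Without the replicate block 9 members fell, TNFAIP3 (adjusted p = 0.088) and PTGS2 (adjusted p = 0.053) being lost, and 4 of 14 fell in the authors' batch-adjusted counts. With no filter on low counts 23 fell, and with the 2 groups fitted alone 19 fell.

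Chemokines, several of them NF-κB targets with the κB letters shown above, were the next group. Of 24 chemokine and receptor genes 5 fell (20.8% against 1.79% of all genes) and 1, CXCR4, rose (4.17% against 0.881%), and the list median was -0.75. CXCL6, a neutrophil-attracting chemokine, stood at 73.6, 261 and 52 CPM in iEF and 14.8, 35.9 and 3.38 CPM in Δ22 (log2 fold change -2.83 ± 0.64, adjusted p = 0.0204). CXCL3, of the same class, stood at 17.9, 33.9 and 43.7 CPM in iEF and 4.77, 10.3 and 2.55 CPM in Δ22 (log2 fold change -2.42 ± 0.54, adjusted p = 0.0192), and CXCL2 at 13.7, 62 and 27.5 CPM in iEF and 4.39, 13.9 and 3.69 CPM in Δ22 (log2 fold change -2.21 ± 0.56, adjusted p = 0.0377), where the highest Δ22 library lay just above the lowest iEF library. CCL20, which attracts cells bearing CCR6, stood at 21.8, 71.1 and 72 CPM in iEF and 6.42, 17.8 and 5.15 CPM in Δ22 (log2 fold change -2.52 ± 0.60, adjusted p = 0.0274). ACKR3, a scavenging receptor for CXCL12, fell by 2.13 on the log2 scale from low levels and its groups overlapped. CXCL8 (log2 fold change -0.87 ± 0.37, adjusted p = 0.271), CXCL1 (log2 fold change -1.73 ± 0.52, adjusted p = 0.0876) and CCL2 (log2 fold change -0.35 ± 0.44, adjusted p = 0.817) did not pass. No chemokine fall was kept with every library left out. Of the 5, CXCL6 alone was called without iEF replicate 3 and CXCL3 alone without iEF replicate 2, and 0 list members fell without Δ22 replicate 1 or without Δ22 replicate 3. Without iEF replicate 2 the log2 fold change of CXCL6 was -2.06. Without the replicate block 3 of the 5 were called, with CXCL2 (adjusted p = 0.087) and ACKR3 (adjusted p = 0.10) lost.

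**Figure D3:**
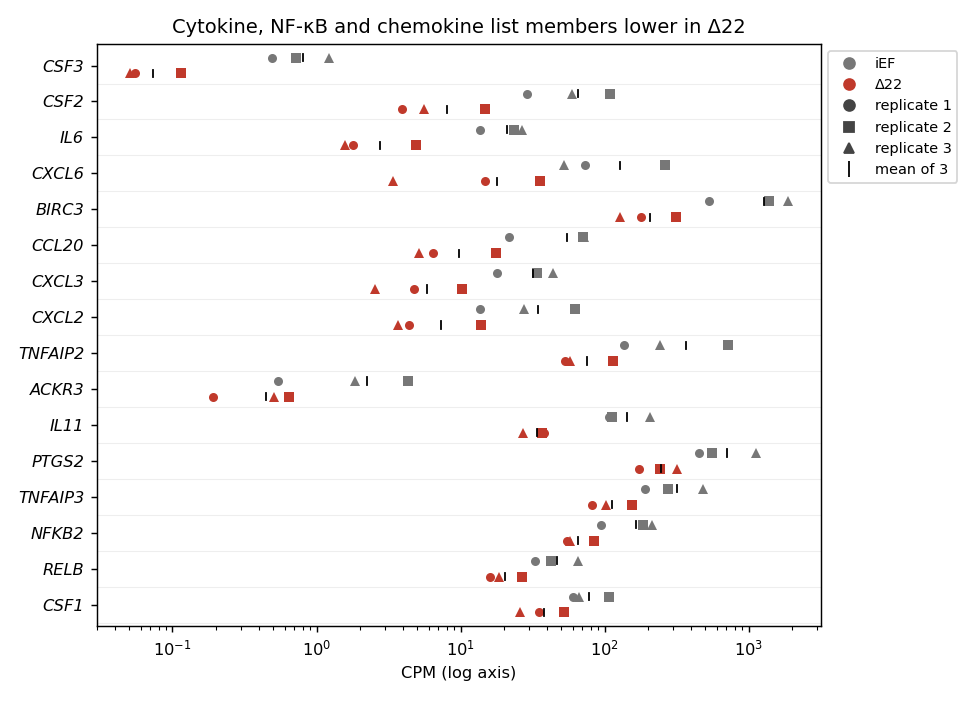
CPM on a log axis of the 16 cytokine, NF-κB target and chemokine genes that fell, in the 3 iEF libraries (grey) and the 3 Δ22 libraries (red), with marker shape for the replicate and a black bar for the group mean. Δ22 lies to the left of iEF in 14 genes, overlaps it in CXCL2 and ACKR3, and replicate 2 is the highest Δ22 library in most rows.

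WT-EF held lower levels than Δ22 of most of these transcripts. IL6 stood at 0.42 ± 0.16 CPM in WT-EF (log2 fold change -2.65 ± 0.51, adjusted p = 0.000486), BIRC3 at 27.2 ± 7.95 CPM (log2 fold change -2.90 ± 0.59, adjusted p = 0.000803), NFKB2 at 26.5 ± 7.95 CPM (log2 fold change -1.30 ± 0.32, adjusted p = 0.0048) and CXCL6 at 0.887 ± 0.393 CPM (log2 fold change -4.17 ± 0.77, adjusted p = 0.000332). Of the 16 that fell in Δ22, CSF3 (log2 fold change -2.03 ± 1.09, adjusted p = 0.198) and CCL20 (log2 fold change -1.64 ± 0.62, adjusted p = 0.0564) did not differ past the threshold between WT-EF and Δ22. In iLuc cells, which keep the fusion, IL6 stood at 0.0949 ± 0.0326 CPM and BIRC3 at 5.9 ± 0.659 CPM.

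Some other ETS genes were lower in cells with Δ22. Of 26 ETS family members tested, 5 fell (19.2% against 1.79% of all genes) and 1, FLI1, rose (3.85% against 0.881%), the latter being the gene from which the construct was made. EHF, an epithelial ETS factor (chromosome 11, 34642640 to 34684835, forward strand of GRCh37), stood at 15.4, 9.67 and 18.2 CPM in iEF and 2.25, 3.71 and 1.99 CPM in Δ22 (log2 fold change -2.45 ± 0.44, adjusted p = 0.00441). ERG, the closest relative of FLI, stood at 1.54, 1.16 and 2.05 CPM in iEF and 0.521, 0.344 and 0.404 CPM in Δ22 (log2 fold change -1.92 ± 0.41, adjusted p = 0.0154), and ETS2 at 49.6, 32.4 and 118 CPM in iEF and 19.3, 25.7 and 26.2 CPM in Δ22 (log2 fold change -1.43 ± 0.26, adjusted p = 0.00541), with iEF replicate 3 more than 2 times the other iEF libraries. ELK3, a ternary complex factor partner of SRF, went from 154, 142 and 162 CPM to 111, 117 and 106 CPM (log2 fold change -0.46 ± 0.10, adjusted p = 0.017). ELF3 stood at 0.77, 10.1 and 0.648 CPM in iEF and 0.302, 0.298 and 0.252 CPM in Δ22 (log2 fold change -3.15 ± 0.75, adjusted p = 0.0274), and iEF replicate 2 alone carried most of that level. The groups did not overlap in these 5 genes, which were already selected by adjusted p. Over the 26 members tested, 7 lay lower in Δ22 without overlap and 2 higher, against 7.48% and 6.77% of all genes tested. ETS1 (233, 276 and 559.7 CPM in iEF, 157, 238 and 200.3 CPM in Δ22, log2 fold change -0.79 ± 0.29, adjusted p = 0.179) and ETV4 (log2 fold change -0.74 ± 0.21, adjusted p = 0.0741) did not pass. The list median was -0.21, and 10 of the 26 members had a log2 fold change above 0. Only 2 members fell without Δ22 replicate 1. ELF3 was not called without iEF replicate 2 (log2 fold change -1.35, adjusted p = 0.32) or without any of the Δ22 libraries (log2 fold change -2.44 without Δ22 replicate 2). Without iEF replicate 3 EHF, ELF3 and ETS2 were called and ERG (adjusted p = 0.11) and ELK3 (adjusted p = 0.12) were not, and without Δ22 replicate 3 none of the 5 was, EHF at adjusted p = 0.053 and ETS2 at adjusted p = 0.053.

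The 12 genes with the largest fall at a mean of at least 5 CPM were SPX, ITGAM, ABCA10, PAPPA2, ABCB1, CSF2, IL6, C3, ROCK1P1, CXCL6, ABCC9 and SRGN. In several of them iEF replicate 3 was far above the other iEF libraries. ITGAM, the αM integrin of myeloid cells, stood at 2.57, 2.1 and 25 CPM in iEF and 0.603, 0.573 and 0.707 CPM in Δ22 (log2 fold change -3.55 ± 0.63, adjusted p = 0.00423), and ABCC9, the SUR2 subunit of potassium channels, at 4.48, 1.47 and 28.6 CPM in iEF and 0.933, 1.15 and 1.41 CPM in Δ22 (log2 fold change -2.79 ± 0.65, adjusted p = 0.0239). ABCB1, the multidrug efflux pump, stood at 8.17, 0.907 and 20.7 CPM in iEF and 1.48, 0.435 and 0.555 CPM in Δ22 (log2 fold change -3.42 ± 0.70, adjusted p = 0.0118), with iEF replicate 2 below Δ22 replicate 1, as was also so of PAPPA2 (12, 0.501 and 21.9 CPM in iEF and 2.03, 0.413 and 0.53 CPM in Δ22) and of the pseudogene ROCK1P1 (27.9, 2.75 and 29.3 CPM in iEF and 4.44, 1.01 and 2.2 CPM in Δ22), whose counts are uncertain beside its parent gene. SPX, a peptide hormone precursor, stood at 45.9, 8.79 and 81.1 CPM in iEF and 6.2, 1.49 and 2.9 CPM in Δ22 (log2 fold change -3.75 ± 0.72, adjusted p = 0.0079). Of these 12 genes ABCA10 and IL6 kept their calls with every library left out, and SPX, PAPPA2, ABCB1, ROCK1P1 and ABCC9 lost theirs without iEF replicate 3 and without Δ22 replicate 3. Without iEF replicate 3 the log2 fold changes of SPX, PAPPA2, ABCB1, ROCK1P1 and ABCC9 were -2.66, -2.19, -2.14, -2.21 and -1.40, with adjusted p between 0.061 and 0.31. ITGAM and ABCA10 stayed called without that library, at log2 fold changes of -2.04 and -2.19. ITGAM, C3, CXCL6 and SRGN lost theirs without Δ22 replicate 3, and CXCL6 and SRGN also without iEF replicate 2. PAPPA2 and ROCK1P1 were also lost without Δ22 replicate 2, and ABCC9 and CXCL6 without Δ22 replicate 1.

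C3, the central complement protein, was even across the iEF libraries at 52.2, 46 and 42.6 CPM and lower in every Δ22 library at 6.31, 10.2 and 2.4 CPM (log2 fold change -2.95 ± 0.60, adjusted p = 0.0118). SRGN, the core protein serglycin of secretory granules, stood at 9.57, 54 and 8.38 CPM in iEF and 2.47, 5.32 and 1.39 CPM in Δ22 (log2 fold change -2.78 ± 0.57, adjusted p = 0.0119), with a log2 fold change of -1.77 without iEF replicate 2 (adjusted p = 0.084). In WT-EF, C3 stood at 0.476 ± 0.271 CPM (log2 fold change -3.70 ± 0.73, adjusted p = 0.000606) and SRGN at 0.21 ± 0.076 CPM (log2 fold change -3.75 ± 0.75, adjusted p = 0.00074).

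Of 35 TGF-β pathway genes 3 fell (8.57% against 1.79% of all genes), 0 rose and 32 did not pass. INHBA, the activin A subunit, stood at 172, 334 and 318 CPM in iEF and 71.3, 75.7 and 66.6 CPM in Δ22 (log2 fold change -1.90 ± 0.26, adjusted p = 0.000705), and FST, the activin antagonist follistatin, at 12.6, 42.1 and 42.9 CPM in iEF and 9.02, 7.75 and 9.06 CPM in Δ22 (log2 fold change -1.92 ± 0.32, adjusted p = 0.00266). LTBP1, which tethers latent TGF-β to the matrix, fell from 64.4, 73.7 and 75 CPM to 42, 43.6 and 27 CPM (log2 fold change -0.93 ± 0.18, adjusted p = 0.00817). The list median was -0.16, and in none of the 3, already selected by adjusted p, did the groups overlap. Over the 35 members tested, 5 lay lower in Δ22 without overlap and 2 higher, against 7.48% and 6.77% of all genes tested. INHBA and FST were called with every library left out, and LTBP1 was not called without Δ22 replicate 3 (adjusted p = 0.080). Levels of INHBA were lower again in WT-EF (7.26 ± 0.744 CPM, log2 fold change -3.29 ± 0.28, adjusted p = 3.16e-08).

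Stress and growth-signal genes made a smaller group. Glucocorticoid receptor targets had 5 lower (19.2% against 1.79% of all genes) and 1 higher (3.85% against 0.881%) of 26, with a median of -0.53, and included KLF15, a metabolic transcription factor (1.87, 2.22 and 6.03 CPM in iEF, 0.439, 0.665 and 0.732 CPM in Δ22, log2 fold change -2.42 ± 0.37, adjusted p = 0.00145), and SLC7A2, a cationic amino acid transporter (13, 55.8 and 31.1 CPM in iEF and 6.83, 10.2 and 9.11 CPM in Δ22, log2 fold change -1.81 ± 0.25, adjusted p = 0.000799). Both calls were kept with every library left out, KLF15 at a log2 fold change of -1.71 without iEF replicate 3. KLF15 was not called in the authors' batch-adjusted counts (adjusted p = 0.096). Both genes were higher in WT-EF than in Δ22 (log2 fold change 3.13 ± 0.37, adjusted p = 1.78e-06 and log2 fold change 1.21 ± 0.25, adjusted p = 0.00101). BIRC3, GADD45B (log2 fold change -1.39 ± 0.28, adjusted p = 0.0112) and CRISPLD2 (log2 fold change -1.17 ± 0.31, adjusted p = 0.0473) were the other 3 that fell, and ZBTB16 rose (log2 fold change 1.04 ± 0.21, adjusted p = 0.0119). These last 4 were not called without iEF replicate 3 (GADD45B at a log2 fold change of -0.74) or without Δ22 replicate 3, and CRISPLD2 was also lost without the replicate block. Of 26 MAPK feedback and immediate early genes EGR1 (log2 fold change -1.51 ± 0.35, adjusted p = 0.0234), MYC (log2 fold change -0.81 ± 0.18, adjusted p = 0.0187) and FOSL1 (log2 fold change -0.69 ± 0.16, adjusted p = 0.0211) fell and DUSP4, a phosphatase of ERK, rose (log2 fold change 0.71 ± 0.16, adjusted p = 0.0204), each lost without iEF replicate 3 and without Δ22 replicate 3, and EGR1 and FOSL1 also without the replicate block. These were 11.5% lower and 3.85% higher. Among 24 genes of the amino acid stress response 0 passed in edgeR, with 10 at an unadjusted p below 0.05, although all 24 had a log2 fold change below 0 and the median was -0.58. With no low-count filter 17 of 25 fell in edgeR and with the 2 groups fitted alone 5 of 24 fell, while DESeq2 called 0.

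Genes that the fusion itself is known to regulate changed in both directions. Of 38 genes in the list of fusion-activated genes 1 rose (2.63%) and 3 fell (7.89%), and of 32 in the list of fusion-repressed genes 4 rose (12.5%) and 1 fell (3.12%), against 0.881% and 1.79% of all genes, with medians of 0.012 and -0.045. NR0B1, a nuclear receptor activated through a GGAA repeat (chromosome X, 30322323 to 30327507, reverse strand of GRCh37), stood at 10.9, 23.2 and 14.9 CPM in iEF and 6.64, 12.1 and 5.28 CPM in Δ22 (log2 fold change -1.03 ± 0.27, adjusted p = 0.0473). Each set had less in Δ22, though the groups overlapped, and the call was lost without iEF replicate 2 or 3, without Δ22 replicate 1 or 3, and without the replicate block (adjusted p = 0.091). NR0B1 was higher than in Δ22 in WT-EF (28.4 ± 2.59 CPM, log2 fold change 1.87 ± 0.28, adjusted p = 2.77e-05) and in DAF (27.3 ± 9.45 CPM, log2 fold change 1.77 ± 0.28, adjusted p = 0.00112). FEZF1, a forebrain zinc finger factor, was lower in Δ22 as well (log2 fold change -0.89 ± 0.23, adjusted p = 0.0423), lost without the block (adjusted p = 0.053) and without iEF replicate 1 or 3 or Δ22 replicate 1 or 3. The single activated gene that rose was TNFAIP6, a hyaluronan-binding protein (26.9, 49.6 and 36.3 CPM in iEF, 79.2, 112 and 72.2 CPM in Δ22, log2 fold change 1.21 ± 0.18, adjusted p = 0.0013), which was called with every library left out and stood higher still in WT-EF (log2 fold change 0.98 ± 0.18, adjusted p = 0.000344).

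Other well-known targets were not called. NKX2-2, a homeobox factor needed for transformation, stood at 0.747, 1.38 and 0.811 CPM in iEF, 1.51, 1.28 and 1.16 CPM in Δ22 and 3.61 ± 0.204 CPM in WT-EF. PRKCB, a protein kinase C, stood at 42.5, 28.3 and 35.2 CPM in iEF and 38.5, 53.7 and 44.7 CPM in Δ22 (log2 fold change 0.36 ± 0.18, adjusted p = 0.41) against 257 ± 4.75 CPM in WT-EF (log2 fold change 2.50 ± 0.19, adjusted p = 7.56e-09). IGFBP3 (log2 fold change 0.32 ± 0.23, adjusted p = 0.614) and LOX (log2 fold change -0.55 ± 0.26, adjusted p = 0.327), repressed by the fusion, did not pass between Δ22 and iEF and were lower in WT-EF (log2 fold change -4.04 ± 0.26, adjusted p = 8.72e-10 and log2 fold change -2.42 ± 0.27, adjusted p = 8.38e-07). On the repressed list IGFBP5, DKK1, TAGLN and THBS1 rose in Δ22. DKK1, a secreted Wnt inhibitor, stood at 35, 25.2 and 55.3 CPM in iEF and 92.2, 70.2 and 148 CPM in Δ22 (log2 fold change 1.43 ± 0.27, adjusted p = 0.00593) and was lost without Δ22 replicate 3 (adjusted p = 0.066). THBS1, the matrix protein thrombospondin-1, rose from 79.3, 95 and 88.6 CPM to 139, 131 and 133 CPM (log2 fold change 0.62 ± 0.13, adjusted p = 0.0144), was not called without iEF replicate 3 (adjusted p = 0.078) or without Δ22 replicate 1 (adjusted p = 0.072) or iEF replicate 1, and stood at 5.52 ± 0.64 CPM in WT-EF (log2 fold change -4.61 ± 0.16, adjusted p = 1.3e-13).

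Cell cycle and sterol genes did not move past the threshold in edgeR. The counts were 0 of 35 DNA replication and mitosis genes (median 0.044), 0 of 18 G1 cyclins and CDK inhibitors (median -0.090), 0 of 25 cholesterol synthesis genes (median 0.026) and 0 of 35 interferon-stimulated genes (median -0.27). At an unadjusted p below 0.05 these lists had 0, 1, 5 and 8 genes, and DESeq2 also called 0 in each. With no low-count filter edgeR called 1, 1, 4 and 18 of them, and with the 2 groups fitted alone 0, 0, 1 and 11.

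**Figure D4:**
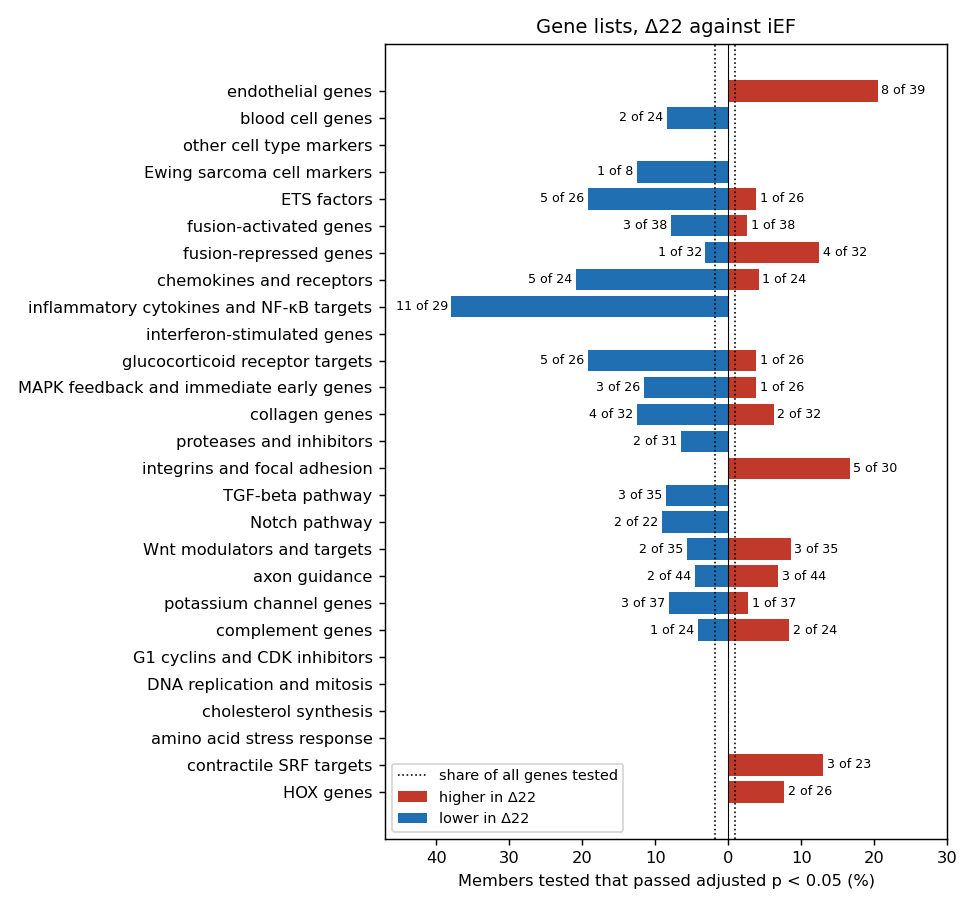
Share of the tested members of each of 27 gene lists that rose (red, to the right) or fell (blue, to the left) in Δ22 at an adjusted p below 0.05, with counts at the bars and dotted lines at the shares of all genes tested, 0.881% and 1.79%. Inflammatory, chemokine, ETS and glucocorticoid lists reach furthest to the left and endothelial and integrin lists furthest to the right, and 6 lists have no bar.

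Δ22 was then set against the constructs with altered EWS domains, in tests that use the same Δ22 libraries and give fold changes over Δ22. DAF differed from Δ22 in 297 genes, 0.972% of those tested, of which 241 were higher in DAF. NR0B1 and TNFAIP6 (log2 fold change 1.44 ± 0.18, adjusted p = 0.000131) were among them, as were PRKCB (138 ± 22.4 CPM in DAF, log2 fold change 1.60 ± 0.19, adjusted p = 5.27e-05), ROBO2 (log2 fold change 1.21 ± 0.19, adjusted p = 0.00149) and FEZF1 (log2 fold change 1.41 ± 0.23, adjusted p = 0.00158). CD93 (16 ± 2.58 CPM in DAF, log2 fold change 0.69 ± 0.36, adjusted p = 0.651), CXCR4 (log2 fold change 0.42 ± 0.36, adjusted p = 0.856), IGFBP5 (log2 fold change -0.36 ± 0.23, adjusted p = 0.754), IL6 (log2 fold change 0.094 ± 0.43, adjusted p = 0.991) and BIRC3 (log2 fold change 0.20 ± 0.54, adjusted p = 0.974) did not differ past the threshold. LTBP1 was lower in DAF (log2 fold change -1.33 ± 0.18, adjusted p = 0.000311). Between DAF-mut9 and Δ22 edgeR called 0 genes, with 671 at an unadjusted p below 0.05, and DESeq2 also called 0. Mean levels in DAF-mut9 were 10.7 ± 2.66 CPM for CD93, 37.2 ± 12.7 CPM for CXCR4, 3925 ± 1271 CPM for IGFBP5, 2.37 ± 1.05 CPM for IL6 and 7.65 ± 2.47 CPM for NR0B1. All DAF-mut9 values rest on reading the count columns named mut9d as that group.

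Every count above weighs the 6 libraries equally, and the number of genes called changed with which of them was present. With 1 library left out between 185 and 919 genes were called, with 291 without iEF replicate 3 and 185 without Δ22 replicate 3. Of 101 calls on named genes or list members, 34 were kept in all 6 of these fits.

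**Figure D5:**
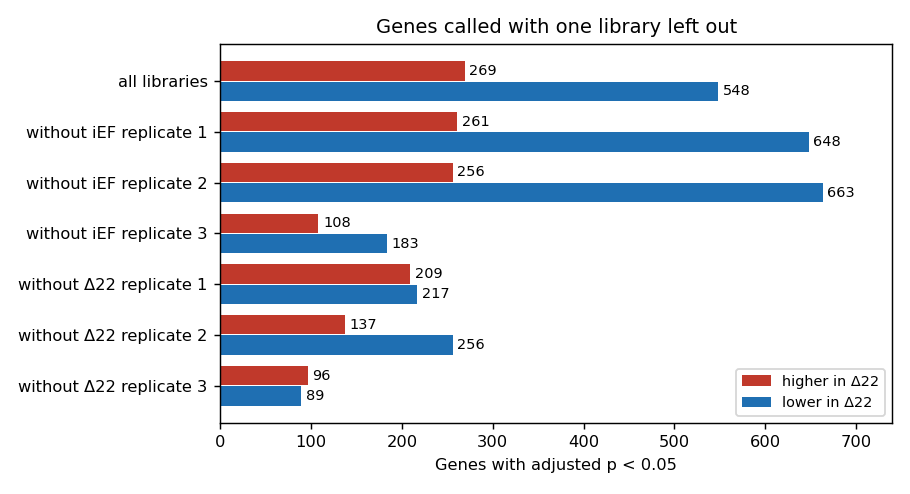
Number of genes higher (red) and lower (blue) in Δ22 at an adjusted p below 0.05 with all libraries and with each of the 6 libraries left out. Lower genes range from 89 to 663 and higher genes from 96 to 269, and only without Δ22 replicate 3 do the higher genes outnumber the lower ones.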

How the data were processed

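A673 cells were profiled by RNA-seq in 21 libraries, of which the 3 Δ22 and 3 iEF libraries are compared here. The authors aligned paired-end reads of ScriptSeq libraries made from 2.5 µg of total RNA with STAR (build hg19), counted them per gene with htseq-count (intersection-strict) and deposited these raw counts. Neither the annotation release nor the strand setting is given in the sources used here, so overlapping and antisense genes cannot be separated. The authors also deposited a signal table in which ComBat adjusted the counts for replicate set. A deposited table of the authors' own comparisons (log2 fold changes and p-values) was not used. Count columns headed mut9d were taken to be DAF-mut9. The counter's 5 summary lines were blank.

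Of 57820 genes, 30549 that averaged 1 count or more per library were tested in edgeR 4.0.16 (R 4.3.3) with TMM, by a quasi-likelihood model of group and replicate set fitted to all 21 libraries, with Benjamini-Hochberg adjustment. The replicate number was used as a block because libraries of the same number deviated together (r = 0.41, 0.39 and 0.25) and the authors adjusted for it. No 2 iEF libraries and no 2 Δ22 libraries agreed within sampling noise. Scripts were tested on simulated counts. Totals of 33.3 to 46.2 M counts make 1 CPM at least 32 counts. Intervals and p-values rest on 3 libraries a group. Alternatives were no block, RLE, other count filters, DESeq2 1.42.0, the ComBat table (rounded), fewer groups, and each library left out.

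The members, the 28 gene lists (760 of 764 symbols matched) and the tests were chosen with earlier results of these data known. The result of 1 list is not reported here. Named genes were FLI1, EWSR1, the 12 highest and 12 lowest by fold change at a mean of at least 5 CPM with the same direction in all 3 sets, and called members of the lists. Members that did not pass are given as values. Gene positions are from GENCODE 44 lifted to GRCh37, and promoters from RefSeq on GRCh38.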

Additional observations from a re-analysis of the deposited data

How the results depend on the processing

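FLI1 was called higher in Δ22 under every alternative, with log2 fold changes of 1.10 to 1.32. The 817 genes called became 508 without the replicate block (152 higher, 356 lower), 2144 with no low-count filter (589 higher, 1555 lower) and 539 with a 2-fold change required (152 higher, 387 lower), and DESeq2 called 405 higher. With 1 library left out, 185 to 919 genes were called, 96 to 261 higher and 89 to 663 lower. DAF against Δ22 gave 178 genes without the block, 906 with no filter, 682 with the compared groups alone, 475 with DESeq2 and 170 to 224 with a library left out. WT-EF against Δ22 gave 5573 to 6535 with a library left out. DAF-mut9 against Δ22 gave 14 with no filter. IL1B and CCL2, not called with all libraries and the filter, changed sign, and no named gene that was called did. CCL2 was called with no low-count filter (-0.37, adjusted p = 0.0472). With a library left out IL1B ran from -0.25 (without Δ22 replicate 2; -0.065 without iEF replicate 2) to 0.38, and CCL2 from -0.73 to 0.10 (without iEF replicate 2). The cause of these shifts was not tested.

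Of 101 calls on named genes or list members, 64 were kept in all alternatives that hold every library and 32 in all alternatives. Leaving out iEF replicate 3 lost 51 of them and leaving out Δ22 replicate 3 lost 62, where the affected group has 2 libraries. The replicate block was supported by the labels and the pairing check, and without it 25 of the 101 were lost. In the authors' batch-adjusted counts, tested in edgeR without the block, 20 of the 101 were lost. Among them were THBS1 (adjusted p = 0.63), FEZF1 (0.41), KCNMA1 (0.27), LTBP1 (0.24), CSF1 (0.14) and KLF15 (0.096). The list counts in each alternative were added after seeing the data. Genes near 3 counts per library carry wide counting error.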

Other observations

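Ion channel, complement and matrix genes also differed between Δ22 and iEF, where 0.881% of all genes rose and 1.79% fell. KCNJ15, an inward rectifier potassium channel, stood at 1.91, 2.06 and 1.97 CPM in iEF and 0.137, 0.321 and 0.101 CPM in Δ22 (log2 fold change -3.37 ± 0.47, adjusted p = 0.000834), and KCNMA1, the large-conductance calcium-activated channel, at 119, 108 and 159 CPM in iEF and 71.5, 70.2 and 51.7 CPM in Δ22 (log2 fold change -0.97 ± 0.23, adjusted p = 0.0234). KCNA3 also fell and KCNE4 rose, of 37 potassium channel genes tested. Of 24 complement genes CFI, the protease that inactivates C3b, rose from 10, 38.7 and 12.1 CPM to 42, 62.5 and 36 CPM (log2 fold change 1.30 ± 0.28, adjusted p = 0.014), CD59, an inhibitor of the membrane attack complex, rose by 0.57 on the log2 scale, and C3 fell. Of 32 collagen genes 2 rose (COL14A1 and COL13A1) and 4 fell (COL8A1, COL6A3, COL15A1 and COL9A3). Without iEF replicate 3, 0 rose and 2 fell, and without any 1 of the Δ22 libraries 0 rose and 1 fell. COL8A1 fell from 91.7, 105 and 93.5 CPM to 62.5, 52.6 and 39.5 CPM (log2 fold change -0.92 ± 0.16, adjusted p = 0.00298), and COL6A3 stood at 482, 1126 and 265 CPM in iEF and 358, 323 and 85.2 CPM in Δ22 with overlapping groups (log2 fold change -1.32 ± 0.35, adjusted p = 0.0473). KCNJ15 and COL8A1 were called with every library left out. KCNMA1 was lost without iEF replicate 3 (adjusted p = 0.13) or Δ22 replicate 1 or 3, and KCNA3 without any 1 of 5 libraries, iEF replicate 3 among them. KCNE4 was lost without the replicate block (adjusted p = 0.094), without iEF replicate 1 or 3 and without Δ22 replicate 1 or 2. CFI was lost without the block (adjusted p = 0.068), without iEF replicate 1 or 3 and without Δ22 replicate 2, and its log2 fold change was 1.96 without iEF replicate 2. CD59 was lost without iEF replicate 1 or 2 or Δ22 replicate 2 or 3. COL6A3 was lost without the block (adjusted p = 0.15), without iEF replicate 2 (log2 fold change -0.62, adjusted p = 0.37) and without any 1 of the Δ22 libraries (adjusted p between 0.059 and 0.26).

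Patterning and Wnt genes moved in small numbers. Of the members tested, 7.69% of HOX and 8.57% of Wnt genes rose, against 0.881% of all genes. Lower were 5.71% of Wnt, 9.09% of Notch and 6.45% of protease and inhibitor genes, against 1.79% of all genes. HOXB8 (4.76, 3.88 and 2.54 CPM in iEF, 9.65, 13.2 and 23.6 CPM in Δ22, log2 fold change 2.04 ± 0.28, adjusted p = 0.000705) and HOXB6 (log2 fold change 0.63 ± 0.15, adjusted p = 0.0307) rose among 26 HOX genes, HOXB6 not without the replicate block (adjusted p = 0.10), iEF replicate 3 (adjusted p = 0.15) or any 1 of 4 other libraries. Of 35 Wnt modulators and targets DKK1, ROR1 and FZD1 rose, and NOTUM, a secreted Wnt inactivator (0.7, 2.78 and 0.892 CPM in iEF, 0.274, 0.16 and 0.0505 CPM in Δ22, log2 fold change -3.05 ± 0.54, adjusted p = 0.00395), and NKD1 fell. FZD1 was lost without iEF replicate 3 (adjusted p = 0.055) or Δ22 replicate 2 or 3, NKD1 was called without iEF replicate 3 and lost with any other library left out, and NOTUM had a log2 fold change of -2.27 without iEF replicate 2. The Notch targets NRARP (1.63, 1.56 and 8 CPM in iEF and 0.658, 1.15 and 0.707 CPM in Δ22) and HEY1 (10.6, 10.2 and 28.2 CPM in iEF and 6.09, 8.55 and 3.41 CPM in Δ22) fell among 22 pathway genes, and both were lost without iEF replicate 3 (log2 fold changes -0.98 and -0.69, adjusted p = 0.23 and 0.31) and without any 1 of the Δ22 libraries, HEY1 also without the block. Among 31 proteases and inhibitors MMP19 and MMP13 fell, and 0 of 31 fell without iEF replicate 3 or without Δ22 replicate 3. MMP13 was also lost without the replicate block (adjusted p = 0.071), without iEF replicate 2 and without Δ22 replicate 2.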
